A study of Mus musculus with 73 samples.

Results

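The genes described here encode chaperones that carry histone H3 or its replacement variant H3.3 onto DNA. They were chosen by name, whatever their values: Hira, Ubn1, Ubn2 and Cabin1 of the HIRA complex, Asf1a and Asf1b, Daxx and Atrx, Nasp, and Dek. All 10 of these 10 were found among the 25220 gene symbols of the RNA-seq table. The series studies H3.3 in early mouse embryos and holds 73 samples, of which the 8 RNA-seq libraries were used. The embryos were C57BL/6 and C3H hybrids grown in KSOM, an embryo culture medium, and total RNA was sequenced.

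The libraries formed 3 groups. There were 3 libraries of 8-cell embryos with EGFP, a green fluorescent protein that served as the control, 3 of 8-cell embryos with p150DN, and 2 of blastocysts with EGFP. p150DN is a dominant-negative form of p150, the large subunit of the chaperone CAF-1, whose gene is Chaf1a. For other samples of the series the labels describe injection of EGFP or EGFP-p150DN mRNA into the cytoplasm of 1-cell embryos. For the RNA-seq libraries they do not state how either protein was supplied, how many embryos were pooled, or the hour of collection. Nor do they say that libraries of a group came from separate cultures, so p-values rest on the spread among the libraries alone, and this may be technical.

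CAF-1 deposits H3.1 and H3.2 behind the replication fork, whereas H3.3 is put in place throughout the cell cycle. HIRA loads H3.3 at active genes and, after fertilization, on the paternal genome, with the help of UBN1 or UBN2 and CABIN1. DAXX with ATRX loads it at repeats and heterochromatin. ASF1A and ASF1B pass H3-H4 dimers to both HIRA and CAF-1, and NASP holds the soluble H3-H4 store.

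Levels are in FPKM, which divides the fragments counted for a gene by its length and by the library's total, so levels of different genes can be compared. The 8 libraries held 16578221 to 22488477 counted fragments, and each of the chaperone genes rested on 321 to 27112 fragments in a library. FPKM shows shares of RNA, and in such bulk samples fewer cells of a type cannot be told apart from less RNA per cell. Chaf1a checked the label: it stood at 27.7, 30.2 and 28.8 FPKM with EGFP and at 165, 254 and 238 FPKM with p150DN, and introduced sequence cannot be told apart from the embryo's own gene there. Summed trophectoderm markers (8 of 8 measured) were 101 to 119 FPKM in EGFP 8-cell embryos, where Elf5 was at 0, 334 to 544 FPKM with p150DN, and 1228 to 1273 FPKM in blastocysts. Most of the EGFP 8-cell sum was Tfap2c, at 80.7 to 94.0 FPKM. Tfap2c went the other way with p150DN, at 64.9 to 76.3 FPKM, and was at 92.2 and 74.2 FPKM in blastocysts. Summed inner cell mass and pluripotency markers (5 of 5) were 378 to 528, 483 to 683 and 844 to 903 FPKM, mostly from Pou5f1, while Klf2 of that list went the other way, at 102 to 112, 48.8 to 53.1 and 13.5 to 16.5 FPKM. Summed S phase genes (8 of 8) were 591 to 706, 714 to 721 and 704 to 749 FPKM, so the p150DN sums were above the EGFP 8-cell sums. Mcm6 of that list went the other way, at 93.5 to 107, 64.8 to 72.7 and 64.9 to 71.5 FPKM. Rrm2 (172 to 263 and 243 to 277 FPKM) and Ccne1 (135 to 183 and 118 to 176 FPKM) overlapped between the 8-cell groups. For Mcm5 and Pcna every p150DN library was above every EGFP 8-cell library. Summed oocyte markers (6 of 7) were 64.5 to 81.0, 30.5 to 69.2 and 8.51 to 9.18 FPKM. Cumulus and granulosa markers summed to at most 2.48 FPKM in any library, with Has2 at 0 in every 8-cell library. The p150DN replicates 2 and 3 detected 20465 and 21282 genes above 0, against 17310 to 18991 in the other 6 libraries. The part of these shifts in the results below was not tested, except where values without those libraries are given.

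In control 8-cell embryos Nasp was the most abundant of the chaperone mRNAs, at 372 ± 54.2 FPKM (SD, n = 3). Dek followed at 106 ± 3.69 FPKM and Atrx at 67.6 ± 6.51 FPKM, and the libraries of these 3 genes did not overlap with each other or with the next gene. Hira, at 31.4 ± 2.69 FPKM, overlapped with Ubn1, and Ubn1 with Cabin1. Asf1a, Asf1b, Ubn2 and Daxx, at 14.4, 12.3, 11.7 and 11.3 FPKM, formed the low end, each overlapping with its neighbour. With p150DN the first 3 places were the same, and Asf1a, at 30.6 ± 1.85 FPKM, then shared the fourth place with Hira, at 29.1 ± 1.93 FPKM. Asf1b, Cabin1, Ubn1 and Daxx followed at 19.2, 15.8, 14.6 and 13.0 FPKM, each overlapping with its neighbour, and Ubn2, at 10.4 FPKM, was below all libraries of Daxx. In blastocysts Asf1a, at 35.6 ± 7.25 FPKM (SD, n = 2), overlapped with Atrx, at 43.0 FPKM, and Asf1b, Hira and Daxx overlapped at 18.8, 18.2 and 17.5 FPKM. Cabin1, Ubn1 and Ubn2 were the lowest, at 10.7, 10.2 and 7.99 FPKM, with no overlap among them.

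**Figure D1:**
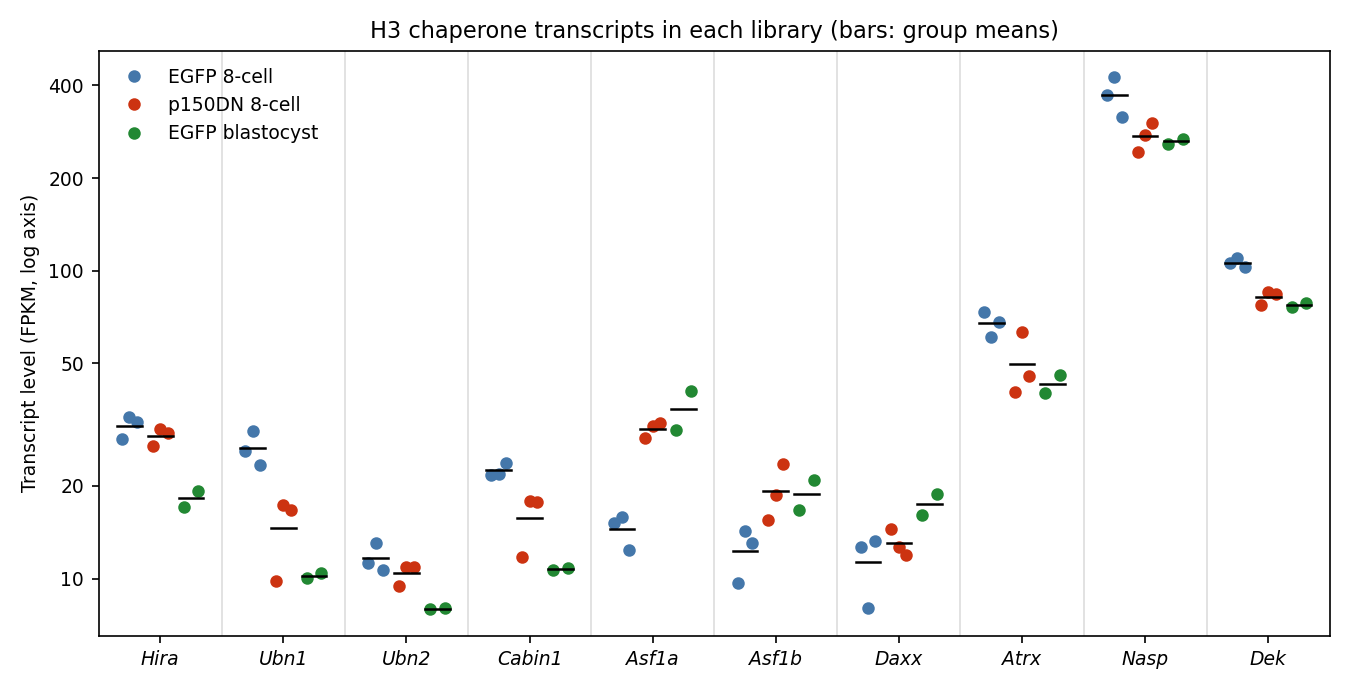
FPKM of the 10 chaperone genes in each library on a log axis, with points for libraries and bars for group means. Nasp, Dek and Atrx are the highest in every group, and Asf1a moves from 14.4 FPKM in EGFP 8-cell embryos to 30.6 with p150DN and 35.6 in blastocysts.

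With p150DN, 5 of the 10 genes changed against EGFP 8-cell embryos: Asf1a and Asf1b rose, and Ubn1, Nasp and Dek fell. Among all 11730 genes tested 34.3% passed, 24.6% higher and 9.68% lower, and the chaperones' 2 of 10 higher and 3 of 10 lower are to be read against these shares. The groups did not overlap for 6 of the 10 genes, against 49.8% of all genes. The median log2 difference of the 10 was -0.26, and that of all genes 0.19. The test was limma on log2(FPKM + 1) with Benjamini-Hochberg adjustment over all genes, and calls are adjusted p-values below 0.05. The count fell to 1 without EGFP replicate 1 or without EGFP replicate 2, to 2 without p150DN replicate 3, and to 3 without EGFP replicate 3 or p150DN replicate 1. Calls among all 11730 genes fell too, from 4023 to 2538, 3056, 2693, 3147 and 3777 in that order. With p150DN replicates 2 and 3, the libraries with the most detected genes, both left out, replicate 1 alone stands for its group. The spread then comes from the EGFP libraries alone. In that fit the differences were 0.94 for Asf1a, 0.33 for Asf1b, -1.34 for Ubn1, -0.6 for Nasp and -0.45 for Dek. A median-of-ratios scaling puts the median of all genes at 0.003 and moves the higher share of their calls from 71.8% to 50.4%. It gave 1 gene higher (Asf1a) and 5 lower, with 17.0% of all genes lower. Quantile normalization gave 1 higher (Asf1a) and 2 lower (Ubn1 and Cabin1), with 15.6% of all genes lower. Nasp and Dek did not pass under quantile normalization (adjusted p = 0.0902 and 0.0678).

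Between the stages all 10 genes changed: in blastocysts Asf1a, Asf1b and Daxx were higher than in EGFP 8-cell embryos and the other 7 were lower. Of all 12199 genes tested 67.5% passed, 42.6% higher and 24.9% lower, so 7 of 10 lower stands against 24.9% of all genes. With median-of-ratios or quantile scaling 1 of the 10 was higher (Asf1a) and 7 lower, and 32.7% or 31.7% of all genes were lower. Groups did not overlap for 10 of the 10, against 79.6% of all genes. The median difference of the 10 was -0.49 and that of all genes 0.28. The count was 7 without EGFP 8-cell replicate 1, where calls among all genes numbered 7506, against 8236 with every library. Without either blastocyst library, 1 library stands for that group and the spread comes from the EGFP 8-cell libraries alone.

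**Figure D2:**
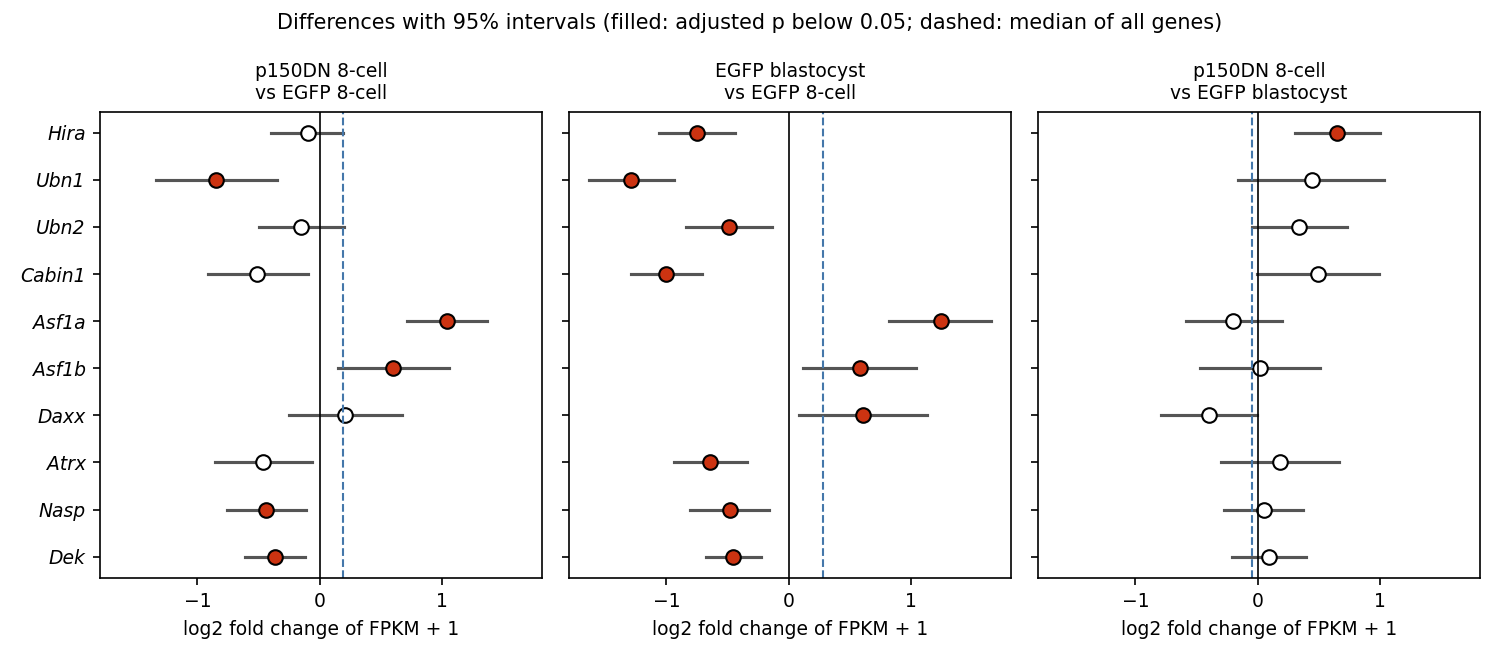
Log2 differences of log2(FPKM + 1) for each chaperone gene in the 3 comparisons, with 95% intervals; filled points passed the test and dashed lines are the median of all genes. Asf1a lies above 0 and Ubn1 below 0 against EGFP 8-cell embryos in both p150DN embryos and blastocysts, and Hira is the one gene that passed between p150DN embryos and blastocysts.

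Hira, at chr16:18876750-18970309, encodes the scaffold of its complex. Its mRNA stood at 28.4, 33.6 and 32.2 FPKM in EGFP 8-cell embryos, 26.9, 30.6 and 29.7 FPKM with p150DN, and 17.1 and 19.3 FPKM in blastocysts. The 2 kinds of 8-cell embryo overlapped, and both blastocyst libraries were below every 8-cell library. The p150DN difference was -0.10 ± 0.13 on the log2 scale (SE; 95% interval -0.40 to 0.19, adjusted p = 0.56), which passed under none of 16 alternatives. The blastocyst difference was -0.75 ± 0.13 (adjusted p = 0.00197). That fall passed under 14 of 14 alternatives.

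UBN1 is the subunit that contacts H3.3 in the HIRA complex, and UBN2 is its paralog. Ubn1 spans chr16:5050057-5086289 and Ubn2 chr6:38433925-38512763. The 250 bases before each start site (GRCm38.p6, plus strand for both) are shown because the paralogs share one motif. Capitals mark matches to TGACGTCA, the cAMP response element, to CCAAT, the NF-Y box, and to CCGCCC, the SP/KLF box, on either strand, and no match overlaps another.
Ubn1, chr16:5049807-5050056: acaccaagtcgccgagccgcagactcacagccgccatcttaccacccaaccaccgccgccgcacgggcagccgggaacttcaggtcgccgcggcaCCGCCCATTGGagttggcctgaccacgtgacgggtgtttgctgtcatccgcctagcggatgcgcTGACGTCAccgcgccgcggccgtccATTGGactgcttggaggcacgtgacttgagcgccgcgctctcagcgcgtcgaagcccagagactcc
Ubn2, chr6:38433675-38433924: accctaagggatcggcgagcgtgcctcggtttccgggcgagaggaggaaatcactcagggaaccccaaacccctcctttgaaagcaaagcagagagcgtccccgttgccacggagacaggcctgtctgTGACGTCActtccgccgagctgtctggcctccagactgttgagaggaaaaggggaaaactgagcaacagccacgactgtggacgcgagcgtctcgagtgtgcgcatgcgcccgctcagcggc
Both hold TGACGTCA, which 1.79% of 32851 RefSeq promoter windows of 300 bases hold, and no other of the 10 genes does. Ubn1 also holds 2 CCAAT and 1 CCGCCC matches, and Ubn2 neither. A match is a description of these letters only.

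Ubn1 was measured at 26.0, 30.1 and 23.3 FPKM in EGFP 8-cell embryos, 9.79, 17.3 and 16.7 FPKM with p150DN, and 10.02 and 10.39 FPKM in blastocysts. All p150DN and blastocyst libraries were below all EGFP 8-cell libraries, and p150DN replicate 1 was the lowest of its group here. That library was also the lowest of its group for summed oocyte markers (30.5 against 69.2 and 54.4 FPKM) and Chaf1a (165 against 254 and 238 FPKM). The same held for summed trophectoderm markers (334 against 389 and 544 FPKM) and genes detected. It was the highest for summed pluripotency markers (683 against 483 and 658 FPKM). The part of these in the Ubn1 values was not tested. With p150DN Ubn1 fell by 0.85 ± 0.22 (adjusted p = 0.0171), to 0.555 times its level on the log2(FPKM + 1) scale. Over 16 alternatives the difference lay between -1.34 and -0.60, and 14 of them passed; it missed the threshold without EGFP replicate 1 or 2 (adjusted p = 0.0529 and 0.0603) and was -1.34 with p150DN replicates 2 and 3 left out. In blastocysts it was 0.410 times, a difference of -1.29 ± 0.15 (adjusted p = 0.000296).

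Ubn2 stood at 11.2, 13.1 and 10.7 FPKM in EGFP 8-cell embryos, 9.43, 10.9 and 10.9 FPKM with p150DN, and 7.96 and 8.01 FPKM in blastocysts. The 8-cell groups overlapped and the blastocysts were lower. The p150DN difference was -0.15 ± 0.16 (95% interval -0.50 to 0.20, adjusted p = 0.48), and the blastocyst difference was -0.49 ± 0.15 (adjusted p = 0.0223), lost without either blastocyst library (0.101 and 0.098). The ratio of Ubn1 to Ubn2, which does not depend on library scaling, was 2.32, 2.30 and 2.18 in EGFP 8-cell embryos, 1.04, 1.59 and 1.54 with p150DN, and 1.26 and 1.30 in blastocysts. Neither other group overlapped with EGFP 8-cell embryos. The log2 ratio differed by -0.73 with p150DN (exact two-sided permutation p = 0.1, the smallest that 3 against 3 libraries allow) and by -0.83 in blastocysts (exact p = 0.2, the smallest for 3 against 2). Of 4 such ratio tests each had a Benjamini-Hochberg adjusted p of 0.2.

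Cabin1, at chr10:75646110-75764357, encodes a further subunit. Its mRNA stood at 21.8, 21.9 and 23.8 FPKM in EGFP 8-cell embryos, 11.7, 17.9 and 17.7 FPKM with p150DN, and 10.7 and 10.8 FPKM in blastocysts. No library of the other groups reached the EGFP 8-cell values. With p150DN the difference was -0.51 ± 0.18 (adjusted p = 0.0569), just outside the threshold, and 5 of 16 alternatives passed, among them both other scalings (adjusted p = 0.0117 and 0.027). The difference was -0.32 without p150DN replicate 1 (adjusted p = 0.122), and -0.88 when p150DN replicate 1 alone stood for its group. In blastocysts the level was 0.500 times, a difference of -1.0 ± 0.12 (adjusted p = 0.000422). Against Hira in the same library, a comparison chosen after the values were seen, Ubn1 was 0.724 to 0.917 in EGFP 8-cell embryos, 0.363 to 0.564 with p150DN, and 0.538 and 0.586 in blastocysts. Cabin1 against Hira was 0.651 to 0.767, 0.435 to 0.595, and 0.559 and 0.624, and Ubn2 against Hira 0.332 to 0.396, 0.350 to 0.366, and 0.415 and 0.466. Relative to Hira, every p150DN library was below every EGFP 8-cell library for Ubn1 and for Cabin1, and the groups overlapped for Ubn2. These ratios were not tested.

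ASF1A and ASF1B are encoded by separate genes, at chr10:53596961-53609225 and chr8:83955694-83970195. ASF1A is known to work with HIRA, and ASF1B to be tied to proliferation. The promoters of this pair, the only 2 of the 10 genes called higher with p150DN, are shown for comparison, each on the plus strand of GRCm38.p6. Capitals mark CCAAT and CCGCCC matches on either strand.
Asf1a, chr10:53596711-53596960: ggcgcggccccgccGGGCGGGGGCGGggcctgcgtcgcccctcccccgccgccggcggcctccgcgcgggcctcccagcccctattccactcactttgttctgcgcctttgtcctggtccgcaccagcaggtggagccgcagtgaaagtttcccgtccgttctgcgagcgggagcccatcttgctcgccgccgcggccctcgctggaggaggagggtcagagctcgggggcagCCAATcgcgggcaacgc
Asf1b, chr8:83955444-83955693: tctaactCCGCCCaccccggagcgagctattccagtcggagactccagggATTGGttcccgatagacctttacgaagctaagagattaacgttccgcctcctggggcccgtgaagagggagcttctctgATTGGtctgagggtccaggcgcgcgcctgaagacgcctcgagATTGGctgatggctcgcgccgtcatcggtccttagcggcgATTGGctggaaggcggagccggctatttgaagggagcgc
Asf1a holds 1 CCAAT and 2 CCGCCC matches, and Asf1b 4 CCAAT and 1 CCGCCC matches. CCAAT is in 37.4% and CCGCCC in 35.7% of all promoter windows, and at least 4 CCAAT matches are in 1.06%, here Asf1b and Atrx. The E2F sequences TTTCCCGC and TTTGGCGC, in 1.07% and 0.514% of windows, are in none of the windows of the 10 genes.

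Asf1a was at 15.2, 15.8 and 12.3 FPKM in EGFP 8-cell embryos, 28.5, 31.2 and 32.1 FPKM with p150DN, and 30.5 and 40.7 FPKM in blastocysts. Every p150DN and blastocyst library was above every EGFP 8-cell library. Asf1a rose 2.05-fold with p150DN (log2 difference 1.04 ± 0.14, adjusted p = 0.00133) and 2.36-fold in blastocysts (1.24 ± 0.17, adjusted p = 0.000753), and passed in 16 of 16 and 14 of 14 alternatives. Between p150DN embryos and blastocysts the difference was -0.20 ± 0.17 (95% interval -0.59 to 0.20, adjusted p = 0.40). The gene lies within the span of Mcm9, and whether counting used strand is not stated in any source used here. Its values may therefore hold Mcm9 fragments and are uncertain. Mcm9 stood at 4.89 to 6.73, 3.86 to 7.75, and 2.67 and 3.44 FPKM, and was lower in blastocysts (-0.69, adjusted p = 0.0174) while Asf1a was higher. With p150DN the Mcm9 difference was 0.09 (adjusted p = 0.80).

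Asf1b was at 9.64, 14.2 and 13.0 FPKM in EGFP 8-cell embryos, 15.5, 18.7 and 23.5 FPKM with p150DN, and 16.7 and 20.9 FPKM in blastocysts. The control libraries were again below all others. The rise was 1.52-fold with p150DN (0.60 ± 0.20, adjusted p = 0.0457) and 1.5-fold in blastocysts (0.58 ± 0.19, adjusted p = 0.0322). It was lost under both other scalings (adjusted p = 0.13 and 0.11 for p150DN), and it passed in 6 of 16 and 8 of 14 alternatives. With single libraries left out, the p150DN call held only without p150DN replicate 1 (adjusted p of 0.0509 to 0.166 without any of the others), and the blastocyst call was lost without EGFP replicate 1 or either blastocyst (0.0779, 0.071 and 0.224). The ratio of Asf1a to Asf1b was 1.57, 1.11 and 0.947 in EGFP 8-cell embryos, 1.85, 1.67 and 1.37 with p150DN, and 1.82 and 1.95 in blastocysts. The 8-cell groups overlapped (log2 difference 0.45, exact permutation p = 0.2), and blastocysts were apart from the controls (0.67, exact p = 0.2, the smallest possible).

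**Figure D3:**
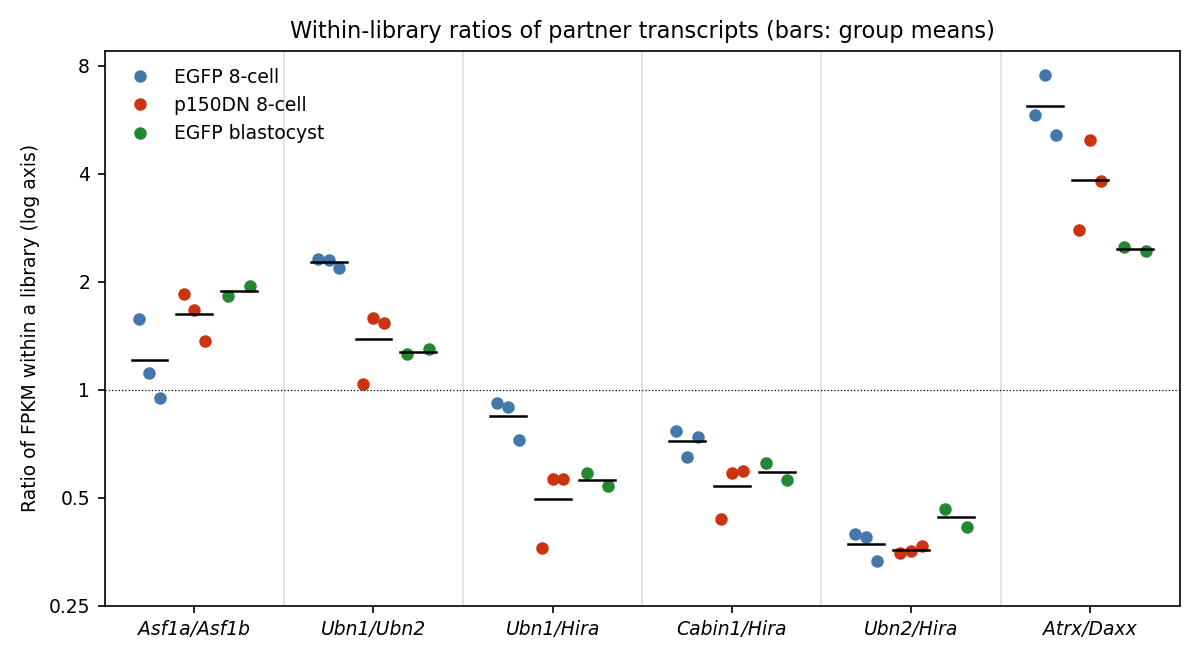
Ratios of FPKM within each library for the pairs named in the text, on a log axis, with points for libraries and bars for group means of the ratios. Ubn1 to Ubn2 and Ubn1 to Hira are apart between EGFP and p150DN 8-cell embryos, whereas Asf1a to Asf1b overlaps.

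DAXX binds H3.3 and its partner ATRX is a SNF2-type ATPase. Their genes lie at chr17:33909404-33915590 and chrX:105797615-105929372. Daxx was at 12.6, 8.05 and 13.3 FPKM in EGFP 8-cell embryos, 14.4, 12.7 and 11.9 FPKM with p150DN, and 16.0 and 18.9 FPKM in blastocysts. The 8-cell groups overlapped, and both blastocyst libraries were higher. The p150DN difference was 0.21 ± 0.20 (95% interval -0.25 to 0.67, adjusted p = 0.44). The blastocyst rise was 1.52-fold (0.61 ± 0.22, adjusted p = 0.0439), and 7 of 14 alternatives passed, neither scaling among them. The call was lost without EGFP replicate 1 (adjusted p = 0.0551) or without either blastocyst library (0.122 and 0.249).

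Atrx was at 73.7, 60.7 and 68.3 FPKM in EGFP 8-cell embryos, 40.2, 63.0 and 45.5 FPKM with p150DN, and 40.1 and 45.9 FPKM in blastocysts. The 8-cell groups overlapped through p150DN replicate 2, and the blastocysts were below all controls. The p150DN difference was -0.46 ± 0.17 (adjusted p = 0.0705), and 3 of 16 alternatives passed: without p150DN replicate 2 (-0.64, adjusted p = 0.0103), with p150DN replicate 1 alone (-0.73, adjusted p = 0.0319) and with median-of-ratios scaling (-0.67, adjusted p = 0.0173). In blastocysts Atrx was 0.642 times its 8-cell level (-0.64 ± 0.13, adjusted p = 0.00365). The ratio of Atrx to Daxx, chosen after the values were seen, was 5.83, 7.54 and 5.15 in EGFP 8-cell embryos, 2.79, 4.97 and 3.81 with p150DN, and 2.50 and 2.43 in blastocysts, with no overlap between the controls and either group.

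Nasp, at chr4:116601052-116628676, encodes the protein that protects free H3-H4. Its mRNA was at 373, 425 and 317 FPKM in EGFP 8-cell embryos, 242, 276 and 302 FPKM with p150DN, and 258 and 269 FPKM in blastocysts. The controls were above every other library. Nasp fell with p150DN by 0.44 ± 0.14 (adjusted p = 0.0416) and in blastocysts by 0.48 ± 0.14 (adjusted p = 0.0162), and passed in 7 of 16 and 11 of 14 alternatives. With single libraries left out, the p150DN call held only without EGFP replicate 3 (adjusted p of 0.0535 to 0.132 without any of the others). The blastocyst call was lost without EGFP replicate 1 (adjusted p = 0.0521) or either blastocyst library (0.114 and 0.0887). Between p150DN embryos and blastocysts the difference was 0.05 (95% interval -0.28 to 0.37).

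Dek, at chr13:47084767-47107530, encodes an abundant chromatin protein with H3.3 chaperone activity. Its mRNA was at 106, 110 and 103 FPKM in EGFP 8-cell embryos, 77.3, 85.5 and 84.1 FPKM with p150DN, and 76.0 and 78.3 FPKM in blastocysts. The controls were again above every other library. Dek fell by 0.37 ± 0.11 with p150DN (adjusted p = 0.0298) and by 0.46 ± 0.10 in blastocysts (adjusted p = 0.00468), and passed in 8 of 16 and 14 of 14 alternatives. With single libraries left out, the p150DN call held only without p150DN replicate 2 (adjusted p of 0.0625 to 0.103 without any of the others). Dek shares 513 bases with Kdm1b, which stood at 9.44 to 12.2 FPKM and passed in neither comparison (adjusted p = 0.42 and 0.82).

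Set directly against blastocysts, p150DN embryos differed in 1 of the 10 genes: Hira was 1.57-fold higher (0.65 ± 0.15, adjusted p = 0.0220). Of all 12648 genes tested 26.1% passed, 11.9% higher and 14.2% lower, and groups did not overlap for 61% of all genes and for 4 of the 10. The count was 0 without p150DN replicate 3 or either blastocyst library, 0 with p150DN replicates 2 and 3 both left out, and 3 without p150DN replicate 1, which added Ubn1 and Cabin1; in each of the settings with 0, limma gave 1 gene at an unadjusted p below 0.05. The p150DN-blastocyst, p150DN-control and blastocyst-control comparisons share libraries, so their values are given side by side and no overlap is read from them. Ubn1, Cabin1 and Ubn2 had p150DN-to-blastocyst differences of 0.44, 0.49 and 0.34 and Daxx one of -0.40, none of which passed (adjusted p = 0.22, 0.12, 0.16 and 0.12). For Ubn1 the groups overlapped, since p150DN replicate 1 was below both blastocyst libraries.

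Other genes of H3 handling were counted from lists set by name with earlier results of these data known. Among 18 other H3-H4 chaperones and co-factors, 4 were higher and 2 lower with p150DN, near the all-gene shares of 24.6% and 9.68%, with a median of 0.17 against 0.19 for all genes. One of the 4 is Chaf1a, whose value includes any introduced p150DN sequence. Hat1, which acetylates new histone H4, rose from 64.2 ± 3.11 to 160 ± 23.8 FPKM (1.29 ± 0.13, adjusted p = 0.000431) and stood at 263 FPKM in blastocysts. Rbbp7, its partner, rose by 0.57 (adjusted p = 0.0145), and Supt6, an elongation-linked chaperone, fell from 124 to 73.3 FPKM (-0.75, adjusted p = 0.00251). Ssrp1 (0.39, adjusted p = 0.0453) and Ipo4 (-0.45, adjusted p = 0.0174), which completed the list's calls, were chosen after their values were seen. In blastocysts 7 of the 18 were higher and 4 lower, against 42.6% and 24.9% of all genes, with Hat1 at 2.02 and Supt6 at -1.28.

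Of 9 partners of DAXX and ATRX, 7 were above the filter, and with p150DN 1 was higher (Cbx5, heterochromatin protein HP1 alpha, 0.45, adjusted p = 0.0422) and 0 lower, also at an unadjusted p below 0.05 in limma. Of all genes 34.3% passed in that comparison. In blastocysts 1 of the 7 was higher and 3 lower, against 67.5% of all genes passing in either direction. Of 7 H3.3 genes and remodelers or readers tied to H3.3, limma called 0 with p150DN, with 1 higher and 1 lower at an unadjusted p below 0.05, again beside 34.3% of all genes. In blastocysts 1 of these 7 was higher (Chd2, 0.75) and 1 lower (Chd1, -1.04), beside 67.5% of all genes passing in either direction. Both are chromatin remodelers named after their values were seen. Blastocysts and EGFP 8-cell embryos did not overlap for 7 of the 7, against 79.6% of all genes. With p150DN, H3f3b, one of the genes for H3.3, was at -0.45 (adjusted p = 0.0542) and H3f3a at 0.12 (adjusted p = 0.41). The 8-cell groups overlapped for both genes. In blastocysts H3f3b was at -0.31 (adjusted p = 0.11) and H3f3a at -0.18 (adjusted p = 0.16).

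**Figure D4:**
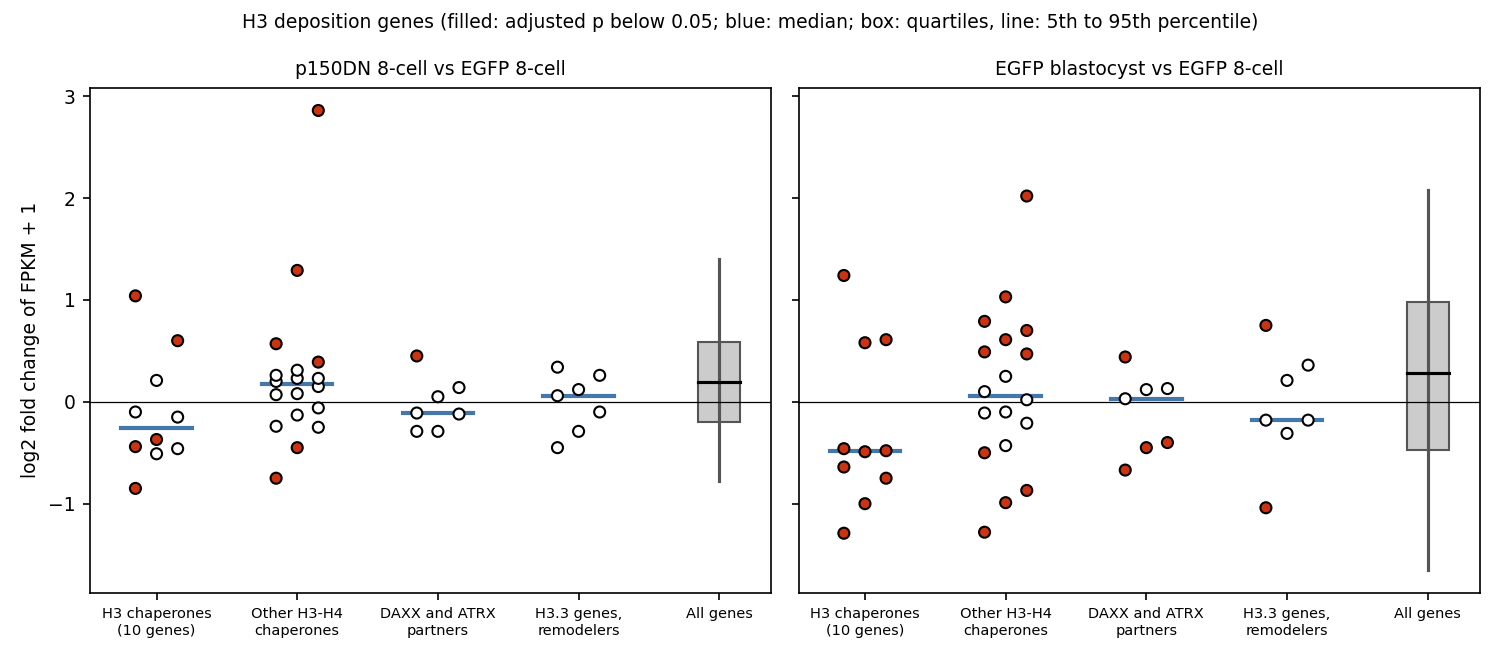
Log2 differences for the chaperone genes and 3 lists of related genes, against EGFP 8-cell embryos, with points for genes, filled where the gene passed, and bars for list medians; the box and line give the quartiles and the 5th to 95th percentiles of all genes. The chaperone genes have medians of -0.26 with p150DN and -0.49 in blastocysts.

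Across the 8 libraries, the genes whose centred profile lay nearest to that of a chaperone gene were found among 7154 genes of at least 5 FPKM on average, by the root mean square difference of log2(FPKM + 1). Nearest to Hira were Cdc20 (0.087), Kif23 (0.090) and Rnaseh1 (0.092), against a median gene at 0.492. Nearest to Asf1a were Sipa1l3 (0.104), Prkar1a (0.105) and Fntb (0.108), and among those nearest to Asf1b were Zmym5 (0.121) and Arhgef11 (0.122). Nearest to Daxx were Gpatch2l, Anapc5 and Qrich1 (0.087, 0.091 and 0.094), and to Nasp Ice1, Ankrd40 and Kbtbd2 (0.077, 0.083 and 0.088). Prkar1a, for example, went from 11.0 FPKM in EGFP 8-cell embryos to 21.5 with p150DN and 28.1 in blastocysts. It was picked for its likeness to Asf1a over these same libraries, so a shared order of groups follows from that choice.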

How the data were processed

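The authors deposited FPKM values for 25220 gene symbols in 8 columns, per the file headers, and each column was matched to its library by name. The 8-cell columns whose names give no treatment were read as the EGFP group. Per the labels, a stranded SMART-seq kit was used on total RNA. The submitters' processing notes name Trim Galore, HISAT2, Bowtie2, SAMtools and featureCounts, with no roles or versions, and the build mm10. Annotation and strand setting: not given in the sources used here. The other 65 samples were not analysed here.

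Genes reaching 1 FPKM in 3 or more libraries (p150DN against EGFP 8-cell) or 2 or more (the other comparisons) were tested on log2(FPKM + 1) with limma 3.58.1 (R 4.3.3, eBayes with trend, two-sided, Benjamini-Hochberg over all genes), tested on simulated data. No count test was run, since the values are FPKM. Fragments per library were recovered from the worth of 1 fragment in short genes. Whole fragments followed for 23316 of 23316 genes above 0, within 0.02 fragments. Libraries within a group differed beyond counting noise and each counted as a replicate. Ratios were compared with an exact permutation test over libraries. Promoters and coordinates come from RefSeq on GRCm38.p6, the assembly of mm10, which matched 24920 symbols (98.8%). The 10 genes, the gene lists and the rule for named genes (all 10, up to 4 called genes of each list with the lowest p for p150DN, and the 3 nearest profiles) were chosen with earlier results of these data known. One gene that this rule names is not reported here. Alternatives were other pseudocounts, filters, scalings and fits, the replicate block, and each library left out. Leaving out p150DN replicates 2 and 3 together was added after seeing the data. That fit, and each fit without a blastocyst library, leaves 1 library in a group but is counted among the alternatives. The other pseudocounts and the filter of 5 FPKM changed no call of the 10 genes, so the alternatives are not separate checks.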

Additional observations from a re-analysis of the deposited data

How the results depend on the processing

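For p150DN against EGFP 8-cell embryos the 5 chaperone genes called became 3 without a filter on low values, 3 with quantile normalization and 2 with eBayes without trend, and 1 to 5 with a library left out. Between the stages the 10 became 8 (1 higher, 7 lower) without a filter and with median-of-ratios or quantile scaling, 9 with eBayes without trend, and 6 to 10 with a library left out. Between p150DN embryos and blastocysts the 1 became 0 with p150DN replicates 2 and 3 left out and 0 with the replicate block, and 0 to 3 with a library left out; in these settings with 0, limma gave 1 gene at an unadjusted p below 0.05. With the replicate block the other comparisons kept counts of 5 and 10. Same-numbered EGFP and p150DN libraries deviated from their group means with correlations of 0.05, 0.09 and 0.04, so the numbers were not taken as pairs. With libraries left out, the log2 ratio of Asf1a to Asf1b differed by 0.29 to 0.65 with p150DN and 0.51 to 0.88 in blastocysts, and that of Ubn1 to Ubn2 by -0.84 to -0.54 and -0.85 to -0.81. Reversals arose only in the p150DN-blastocyst comparison, among genes that did not pass: with p150DN replicates 2 and 3 left out Ubn1 -0.05, Asf1b -0.26, Atrx -0.09 and Nasp -0.12; with the replicate block Asf1b -0.13 and Nasp -0.02; without p150DN replicate 3 Asf1b -0.13 and Nasp -0.02; without p150DN replicate 2 Atrx -0.0028; without blastocyst replicate 1 Asf1b -0.13; and without blastocyst replicate 2 Asf1a 0.01. The cause was not tested. Over all alternatives, 377 gene results kept direction and side of the threshold, 52 lost and 10 gained a call, and 11 reversed. With a library left out, the last comparison gave -0.40 to 0.01 for Asf1a, -0.13 to 0.17 for Asf1b, -0.0028 to 0.31 for Atrx and -0.02 to 0.13 for Nasp. All genes called with p150DN numbered 4023, against 2538 without EGFP replicate 1 and 2483 with p150DN replicates 2 and 3 left out. All genes called between p150DN embryos and blastocysts numbered 3301, against 116 and 79 without a blastocyst library, 1555 without a filter and 1079 with p150DN replicates 2 and 3 left out. Quantile normalization gave 49.3% of p150DN calls higher, and for the stages the share was 63.1%, or 50.3% and 51.0% with median-of-ratios and quantile scaling. Counted fragments limit Asf1b most, at 321 in EGFP 8-cell replicate 1.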
